A study of Mus musculus with 2 samples.

Results

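The expression of 10 genes of the unfolded protein and integrated stress responses was followed, Atf4, Ddit3, Trib3, Asns, Chac1, Sesn2, Hspa5, Herpud1, Xbp1 and Dnajb9, all taken by symbol from the 33696 genes listed in the count matrices of a single-cell RNA sequencing experiment. They were examined across 3 tumour, 4 macrophage and 4 T and NK classes of cells, which held 5096 of the 7163 cells kept from untreated tumours (UT) and 5120 of the 6776 cells kept from tumours given BUP-Gel (BUP). The tumours were CT26, a mouse colon carcinoma cell line, grown under the skin of male BALB/c mice aged 6 to 8 weeks. UT mice received nothing, and BUP mice received a hydrogel carrying bupivacaine, a local anesthetic that blocks sodium channels, at 40 mg/kg by the study's methods. No group given the gel without drug was analysed here. Cells of 3 tumours were pooled in each library after sorting live CD45+ and CD45- cells, which were mixed 4:1 by the labels and 3:1 by the methods, so shares of cell types were set in part by the sort. There was 1 library per condition and hence no replicate, so conditions were compared without a test or p-value. The intervals printed below cover counting error only.

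The integrated stress response begins with kinases that phosphorylate the initiation factor eIF2 when amino acids are short, when heme is low, when double-stranded RNA appears or when the endoplasmic reticulum (ER) is loaded with unfolded protein. Most translation is then reduced while that of the Atf4 mRNA is increased, and the ATF4 protein switches on genes for amino acid synthesis and transport. The unfolded protein response of the ER shares with this system the eIF2 kinase that answers to unfolded protein. It also has the sensors ATF6 and IRE1, which raise ER chaperones, and IRE1 activates Xbp1 by cutting an intron out of its mRNA. Both pathways are known to run in solid tumours, where nutrients and oxygen are limited. Gene counts show mRNA only, so neither the translation of Atf4 nor the splicing of Xbp1 can be read from them.

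ATF4 binds a composite element whose core was searched here as TGATGNAA on both strands. Among 32851 promoter windows of 300 bases (250 before to 50 after the annotated start, RefSeq, GRCm38.p6), 3.97% held this core, and 4 of the 10 members had it, Asns, Chac1, Trib3 and Herpud1. The ER stress element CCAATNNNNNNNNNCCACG, read by ATF6, was found in 0.119% of windows and in that of Hspa5 alone among the members. The related element ATTGGNCCACG was in 0.0365% of windows and only Herpud1 of the members held it, while TGACGTGG, a core read by XBP1, was in 0.676% of windows and in none of the members. A match is a description of these letters in this window and not a binding site. The sequences below belong to the members with a match. Asns, Chac1 and Trib3 held the ATF4 core, Hspa5 held an ER element and Herpud1 held both. A link between these letters and the levels of the genes was not tested. The sequences run 5′ to 3′ on the strand of the gene up to the base before its start, except for Trib3, where 30 bases around the match after the start are given. Capitals mark the matches.
Asns, chr6:7693210-7693459, minus strand: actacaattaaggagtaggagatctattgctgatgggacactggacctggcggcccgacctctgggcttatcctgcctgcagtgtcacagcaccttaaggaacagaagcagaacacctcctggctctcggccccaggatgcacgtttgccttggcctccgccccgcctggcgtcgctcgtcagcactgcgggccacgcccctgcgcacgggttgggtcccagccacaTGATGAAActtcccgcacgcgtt
Chac1, chr2:119350992-119351241, plus strand: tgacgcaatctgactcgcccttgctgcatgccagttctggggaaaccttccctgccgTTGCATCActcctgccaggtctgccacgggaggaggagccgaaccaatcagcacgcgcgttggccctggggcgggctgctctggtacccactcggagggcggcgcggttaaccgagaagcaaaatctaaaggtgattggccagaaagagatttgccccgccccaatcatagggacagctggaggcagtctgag
Trib3, chr2:152344028-152344057, minus strand: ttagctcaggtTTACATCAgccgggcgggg
Herpud1, chr8:94386179-94386428, plus strand: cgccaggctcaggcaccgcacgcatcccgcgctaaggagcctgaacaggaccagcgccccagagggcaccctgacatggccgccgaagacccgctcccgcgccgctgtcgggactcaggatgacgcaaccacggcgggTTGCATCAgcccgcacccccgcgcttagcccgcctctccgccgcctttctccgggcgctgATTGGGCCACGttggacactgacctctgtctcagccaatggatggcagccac
Hspa5, chr2:34771840-34772089, plus strand: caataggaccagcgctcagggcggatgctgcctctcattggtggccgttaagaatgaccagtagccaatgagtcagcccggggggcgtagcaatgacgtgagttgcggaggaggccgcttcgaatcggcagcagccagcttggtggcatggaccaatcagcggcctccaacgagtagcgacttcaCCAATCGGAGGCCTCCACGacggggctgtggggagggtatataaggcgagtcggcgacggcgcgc
In Asns the core began 23 bases before the start, in Chac1 193 bases before it and in Herpud1 112 bases before it. The ER stress element of Hspa5 spanned the bases 65 to 47 before the start.

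The libraries held 83228442 (UT) and 89918925 (BUP) unique molecular identifiers (UMIs, tags that count captured mRNA molecules) in 7556 and 7221 barcodes, with a median of 8430 and 10420 UMIs per kept cell. The kept cells of the libraries shared 68 barcodes. Cells were clustered without the 10 members and without the genes of the pathway lists used below, and clusters were called X-like from marker genes. The 3 tumour-like classes were led by Ogn and Aspn (514 UT and 1531 BUP cells), by Krt20 and Esm1 (437 and 671 cells) and by mitotic genes (175 and 230 cells). Krt20, a colon keratin, stood at 32.1, 170.5 and 128 counts per 1000000 UMIs (CPM) in these classes against 1.29 to 1.87 CPM in the Cxcl3 and C1q macrophage-like cells, but the epithelial genes Epcam, Cdh1 and Cldn4 were at or below 0.33 CPM. An unnamed class led by Xkr4 had Krt20 at 50.6 CPM, above the Ogn and Aspn cells, and the fibroblast-like cells had it at 9.31 CPM. Ereg, another gene on the marker list, did not set the tumour-like classes apart, at 277 to 362 CPM against 536 CPM in the fibroblast-like cells and 519 CPM in the class led by Xkr4. Ddx3y, a Y-linked gene, was at 1.08 to 3.12 CPM in the tumour-like classes, at 39.9 CPM in the C1q macrophage-like cells and at 48.3 CPM in the fibroblast-like cells of the male hosts. The 10 leading genes of the Ogn and Aspn cells also included Apod, Agt, C1s1 and Mmp3 and held no keratin, and these cells held the stromal genes Dcn (1031 CPM), Col1a2 (672 CPM) and Col3a1 (214 CPM), above the Krt20 and Esm1 cells (327, 458 and 68.7 CPM) and below the 15 UT and 64 BUP fibroblast-like cells (7717, 4582 and 9256 CPM). These genes go against the label, so the cells are called by their leading genes, and the tumour label of that class rests on low Y-linked RNA. Ogn and Aspn are on the list of tumour markers, but they lead the class and are no separate support for its label. Aspn was at 263 CPM in this class, 126 CPM in the class led by Xkr4 and 50.6 CPM in the fibroblast-like cells. The study called some of its non-immune clusters fibroblasts, and their match to these cells was not tested. Summed over the 9 macrophage markers, the UT and BUP levels were 440.1 and 264 CPM in the Ogn and Aspn cells, 224 and 83.0 CPM in the Krt20 and Esm1 cells and 603 and 355 CPM in the proliferating tumour cells, compared with 20453 and 20148 CPM in the C1q macrophage-like cells. The part of this immune RNA in the results was not tested.

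The clearest pattern was between the tumour-like classes and lay in the targets of ATF4. Asns, Trib3 and Chac1 were all at least 4-fold higher in the Krt20 and Esm1 cells than in the Ogn and Aspn cells of the same library, in UT and in BUP, and they were also high in the proliferating tumour cells. In the BUP library these 3 genes were lower than in UT in both of the high classes, Trib3 and Chac1 by more than 1.5-fold and Asns by less (log2 ratios of -0.44 and -0.38). In the Ogn and Aspn cells Asns (-0.10) and Trib3 (-0.06) were also within 1.5-fold, and Chac1 had too few UMIs there to be compared. The plot of levels by class shows this for each gene.

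**Figure D1:**
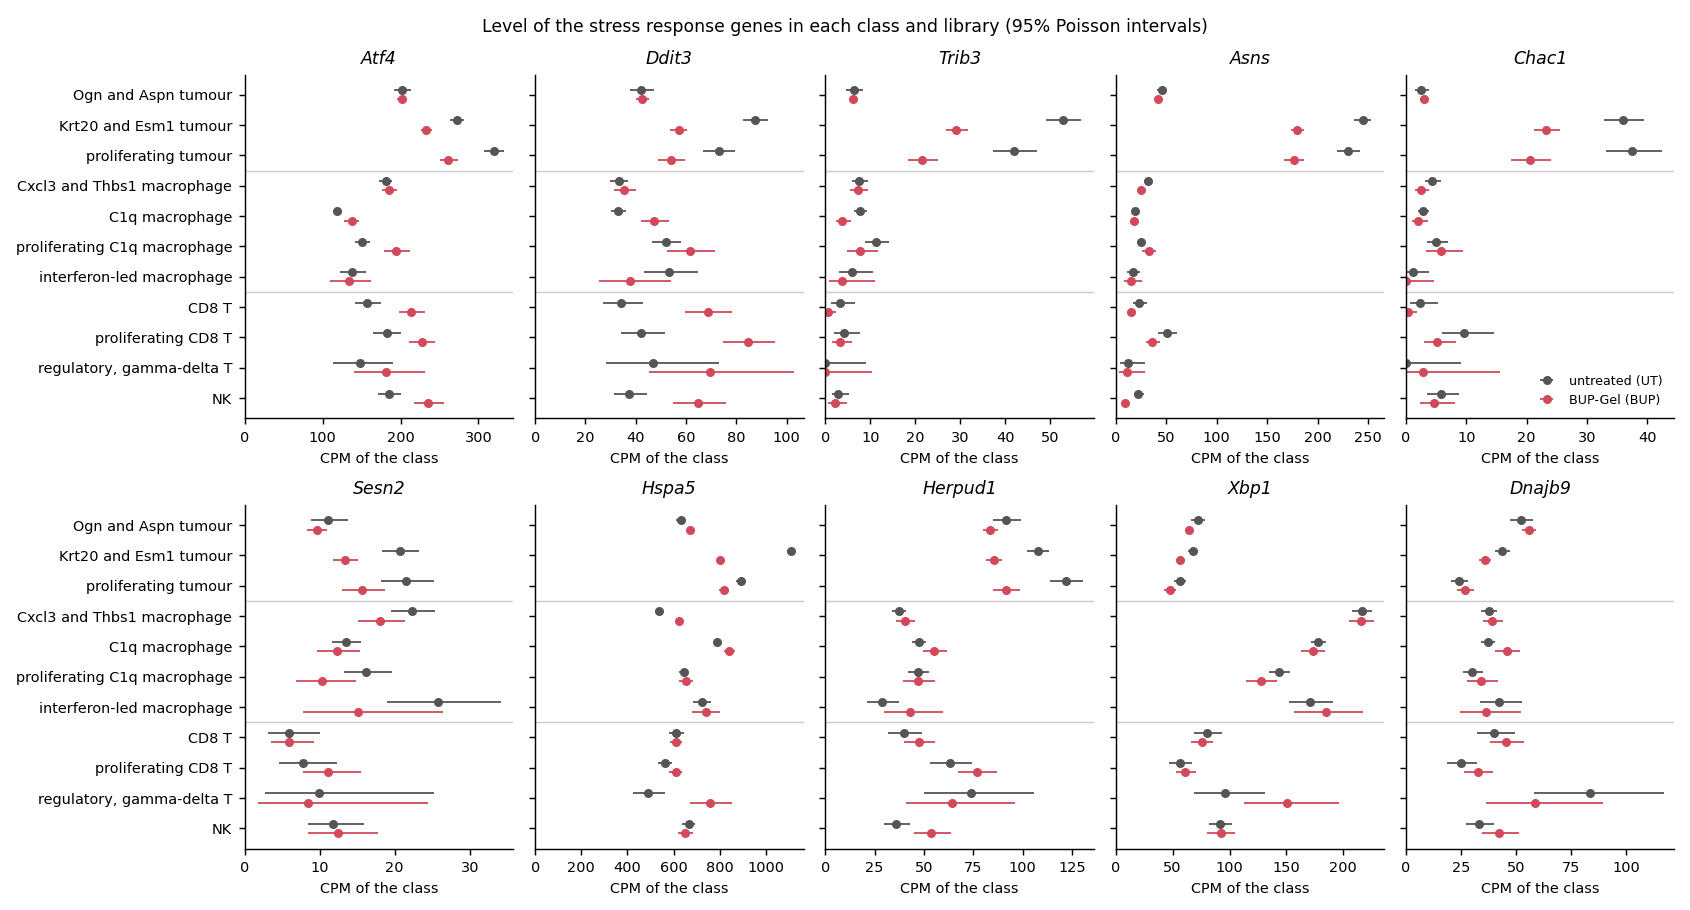
Level of each gene (CPM of the class, linear axis from 0, own scale per gene) in the 11 classes, with UT in gray and BUP in red and bars for 95% Poisson intervals. Asns, Trib3 and Chac1 are highest in the Krt20 and Esm1 and the proliferating tumour classes, Xbp1 is highest in the Cxcl3 and Thbs1 macrophage-like cells, and Ddit3 moves apart between libraries in the CD8 T, proliferating CD8 T and NK classes.

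Asns (ENSMUSG00000029752, GRCm39 chr6:7671667-7728461) encodes asparagine synthetase, which makes asparagine from aspartate. Its level in the Krt20 and Esm1 cells was 245 CPM in UT (95% interval 237 to 253) and 180.0 CPM in BUP (174 to 186). In the proliferating tumour cells it was 231 CPM (219 to 242) and 177 CPM (167 to 186), and in the Ogn and Aspn cells 45.5 CPM (40.7 to 50.6) and 42.3 CPM (39.7 to 45.1). The intervals of the first 2 classes overlapped in each library, and both classes stood above every macrophage and T or NK class, which ranged from 12.3 to 50.4 CPM in UT and from 9.13 to 36.3 CPM in BUP. With each cell thinned to 2000 UMIs, 33.0% of UT and 26.2% of BUP Krt20 and Esm1 cells had an Asns UMI (exact 95% intervals 28.6 to 37.6% and 22.9 to 29.8%), against 7.13% and 7.99% of Ogn and Aspn cells. The thinned shares left out 23 UT and 16 BUP Ogn and Aspn cells and 0 UT and 4 BUP Krt20 and Esm1 cells below that depth. Unthinned, the shares were 89.9% and 82.4% against 39.7% and 37.0%, at median depths of 28639 and 26744 UMIs against 13775.5 and 13994 UMIs. As a measure of free RNA, 4 of 127 UT erythrocyte-like cells (3.15%, median 1020 UMIs) had an Asns UMI and 0 of 114 BUP ones did (median 1116 UMIs), which allows a share of up to 2.63%.

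Trib3 (ENSMUSG00000032715, chr2:152179337-152191958) encodes a pseudokinase that is induced by ATF4 and damps its activity. Its UT and BUP levels were 52.8 CPM (49.0 to 56.8) and 29.1 CPM (26.7 to 31.6) in the Krt20 and Esm1 cells, 41.9 CPM (37.2 to 47.0) and 21.5 CPM (18.3 to 25.1) in the proliferating tumour cells, and 6.36 CPM (4.67 to 8.46) and 6.10 CPM (5.13 to 7.20) in the Ogn and Aspn cells. Its level in the Ogn and Aspn cells lay within the range of the macrophages, from 5.91 to 11.2 CPM in UT and from 3.74 to 7.70 CPM in BUP. In the T and NK classes Trib3 did not exceed 4.09 CPM. The regulatory and gamma-delta T-like cells had no Trib3 UMI, which allows up to 7.40 CPM in UT and 8.36 CPM in BUP.

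Chac1 (ENSMUSG00000027313, chr2:119180757-119184866) encodes an enzyme that degrades glutathione. Its UT and BUP levels were 36.0 CPM (32.9 to 39.4) and 23.3 CPM (21.2 to 25.5) in the Krt20 and Esm1 cells, and 37.5 CPM (33.1 to 42.4) and 20.5 CPM (17.4 to 24.0) in the proliferating tumour cells. The Ogn and Aspn cells held 18 UMIs in UT and 69 in BUP, or 2.44 CPM (1.44 to 3.85) and 3.03 CPM (2.36 to 3.83). Among the other 8 classes the highest level was 9.53 CPM, in the UT proliferating CD8 T-like cells. In these cells 5 barcodes carried most of the 21 Chac1 UMIs (85.7%), whereas the top 5 cells held 11.4% of those in the UT Krt20 and Esm1 cells.

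Written as ratios of the Krt20 and Esm1 to the Ogn and Aspn cells, the log2 differences of Chac1 were 3.89 in UT (3.21 to 4.65) and 2.94 in BUP (2.57 to 3.33). Those of Trib3 were 3.05 (2.63 to 3.51) and 2.25 (1.98 to 2.53), and those of Asns 2.43 (2.27 to 2.59) and 2.09 (1.99 to 2.19). With Ddit3 at 1.05 (0.87 to 1.24), 4 of 10 members were at least 2-fold higher in the Krt20 and Esm1 cells of UT and 0 at least 2-fold lower, while of all 9970 genes with at least 100 UMIs over both classes 5.97% were higher and 6.69% lower by that fold. In BUP 3 of 10 were higher and 0 lower, beside 4.77% and 5.83% of 10992 genes, and Ddit3 was at 0.42 (0.29 to 0.55). The median over the members was 0.86 in UT and 0.34 in BUP, and over all genes it was -0.11 and -0.12.

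Between proliferating tumour cells and Ogn and Aspn cells the same 3 genes were at least 2-fold higher in each library. Their log2 ratios in UT and BUP were 3.95 and 2.76 for Chac1, 2.72 and 1.82 for Trib3 and 2.34 and 2.06 for Asns. One member was at least 2-fold lower, Dnajb9, at -1.12 (-1.39 to -0.85) and -1.05 (-1.28 to -0.84), although with means of CPM over cells it was under 2-fold in UT. Xbp1 was lower by less, at -0.36 (-0.55 to -0.17) and -0.44 (-0.62 to -0.28). The background shares were 8.59% higher and 8.77% lower of 9511 genes in UT, and 7.89% higher and 7.87% lower of 10709 genes in BUP. Between the proliferating and the Krt20 and Esm1 cells 0 of 10 members differed 2-fold in either library, beside 5.10% higher and 0.789% lower of 9888 genes in UT and 5.15% and 0.721% of 10258 genes in BUP. Depth and other cells moved with these classes: the proliferating tumour cells had medians of 37075 and 31400.5 UMIs, 17.7% and 28.7% of them were among the top doublet scores of their library, and their summed T cell markers were at 41.1 and 154 CPM against 5.96 to 11.5 CPM in the other tumour classes. Without the cells of top doublet scores, 4 members were at least 2-fold higher in the proliferating cells of UT and 3 in those of BUP, and 1 was lower in each. Clusters were built from other genes of the same cells, so the differences between classes describe them and are no test.

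**Figure D2:**
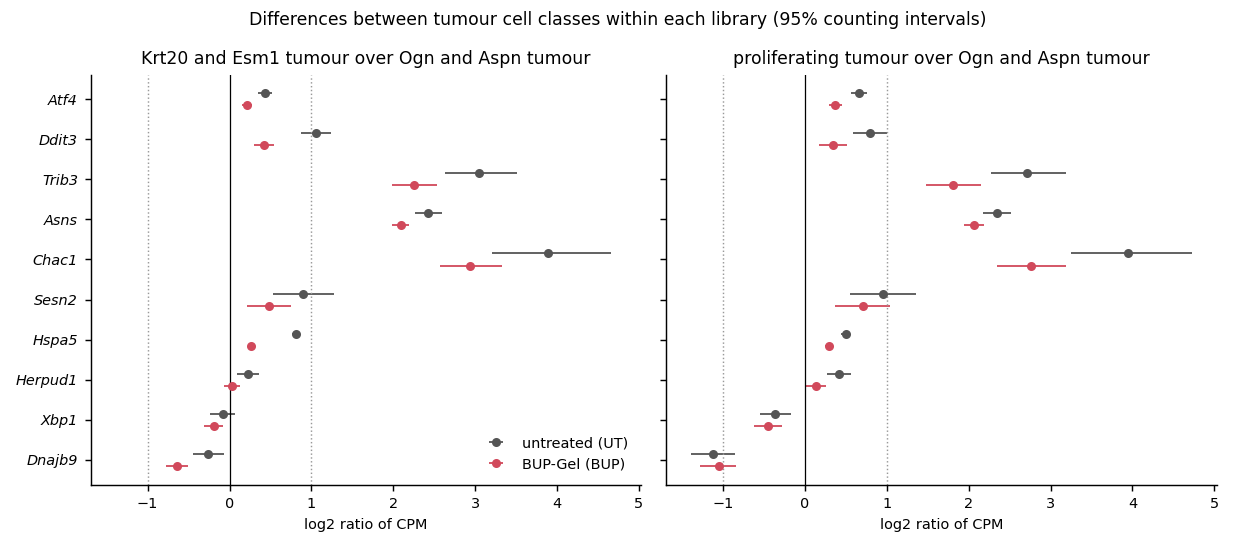
Log2 ratio of CPM of the Krt20 and Esm1 cells (left) and the proliferating cells (right) over the Ogn and Aspn cells, for each member, in UT (gray) and BUP (red), with 95% counting intervals and dotted lines at 2-fold. Chac1, Trib3 and Asns lie beyond 2-fold in both panels and both libraries, with the BUP ratio below the UT ratio, and Dnajb9 lies below 0 in both panels, in the right panel past 2-fold but under it in UT with means of CPM over cells (not plotted).

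The regulators themselves differed less between these classes. Atf4 (ENSMUSG00000042406, chr15:80139372-80141745) encodes the transcription factor at the center of the integrated stress response. It was at 202 CPM in the UT Ogn and Aspn cells (192 to 213), 273 CPM in the Krt20 and Esm1 cells (264 to 282) and 320.0 CPM in the proliferating tumour cells (307 to 334). The corresponding BUP levels were 202, 233 and 262 CPM. In UT the tumour classes held the first 3 ranks of the 11 classes, though the interval of the Ogn and Aspn cells overlapped that of the NK-like cells (186 CPM, 172 to 200.4), with the C1q macrophage-like cells lowest at 119 CPM (113 to 125). In BUP the NK-like cells, at 236 CPM (217 to 256), overlapped the tumour classes on either side of them.

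Ddit3 (ENSMUSG00000025408, chr10:127124268-127132163) encodes CHOP, a factor that can drive cell death under lasting stress. A second entry with this symbol (ENSMUSG00000116429) had 0 UMIs in both libraries. It lies within the first on the same strand (chr10:127126698-127129622), and whether reads matching both entries were left out, which would lower the Ddit3 counts, was not tested. The gene overlaps Mars1, Mbd6 and Gm4189 on the other strand and Gm20492 on its own, and the sources used here do not state how the counting treated strand. Ddit3 stood at 87.5 CPM (82.6 to 92.7) in the UT Krt20 and Esm1 cells and at 73.0 CPM (66.8 to 79.7) in the UT proliferating tumour cells, above all other UT classes of the 11, which lay between 33.1 and 53.2 CPM. In BUP the proliferating CD8 T-like cells were highest at 84.5 CPM (74.6 to 95.3), followed by the other 3 T and NK classes at 64.7 to 69.7 CPM with overlapping intervals, and the Krt20 and Esm1 cells were at 57.1 CPM (53.8 to 60.6).

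Sesn2 (ENSMUSG00000028893, chr4:132219335-132237815), a leucine sensor that restrains mTORC1, had low counts, and the class with its highest level depended on the processing. With cells thinned to 2000 UMIs it was highest in the Krt20 and Esm1 cells in UT and in the proliferating tumour cells in BUP. Without thinning its highest UT levels were 25.8 CPM (19.0 to 34.2) in the interferon-led macrophage-like cells, 22.3 CPM in the Cxcl3 and Thbs1 macrophage-like cells, 21.5 CPM in the proliferating tumour cells and 20.7 CPM in the Krt20 and Esm1 cells, and the interval of each overlapped that of the next. The lowest was 5.87 CPM in the CD8 T-like cells.

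Among the genes of the unfolded protein response, Hspa5 (ENSMUSG00000026864, chr2:34661982-34668880) encodes BiP, the main ER chaperone of the HSP70 family. Its UT level in the Krt20 and Esm1 cells, 1110.2 CPM (1092 to 1128), was above the others of the 11 classes, followed by 893 CPM in the proliferating tumour cells and 789 CPM in the C1q macrophage-like cells. In BUP the Krt20 and Esm1 cells were at 801 CPM (788 to 813) and the C1q macrophage-like cells, at 842 CPM (818 to 865), had the highest value, with an interval that overlapped that of the proliferating tumour cells (819 CPM, 798 to 839). The highest BUP class depended on the processing. It was the proliferating tumour cells with thinned cells or a resolution of 1.0. The Krt20 and Esm1 cells were highest with 30 principal components or with members and list genes kept for clustering, and the interferon-led macrophage-like cells with median-ratio scaling. Herpud1 (ENSMUSG00000031770, chr8:95113022-95123141), a membrane protein that helps remove misfolded ER proteins, ranged from 91.8 to 122 CPM in the UT tumour classes and from 83.5 to 91.6 CPM in BUP. The macrophage classes were lower, at 28.5 to 47.3 CPM (UT) and 40.4 to 55.1 CPM (BUP).

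Xbp1 (ENSMUSG00000020484, chr11:5470606-5483027) encodes the transcription factor activated by IRE1. Of the 11 classes it was highest in the Cxcl3 and Thbs1 macrophage-like cells, at 216 CPM in each library (208 to 226 in UT and 205 to 227 in BUP), and the 4 macrophage classes spanned 143 to 216 CPM in UT and 128 to 216 CPM in BUP. The tumour classes were at 56.3 to 72.3 CPM and 47.5 to 64.6 CPM. Outside the 11 classes the plasmacytoid dendritic-like cells reached 524 and 578 CPM from 32 and 21 cells. Dnajb9 (ENSMUSG00000014905, chr12:44252341-44257171), which encodes an ER co-chaperone that represses IRE1, was highest in the regulatory and gamma-delta T-like cells with UT and BUP levels of 83.8 CPM (58.1 to 117) and 58.6 CPM (36.2 to 89.5), from 34 and 21 UMIs, where the BUP interval overlapped that of the Ogn and Aspn cells. In the tumour classes it ran from 52.4 CPM in Ogn and Aspn cells to 24.1 CPM in proliferating cells of UT and from 55.9 to 26.9 CPM in BUP. Neutrophil-like cells exceeded all 11 classes in Dnajb9 (236 and 225 CPM), in Ddit3 (242 and 284 CPM) and in Sesn2 (87.9 and 63.1 CPM).

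Over the 22 class-by-library levels on a log2 scale (pseudocount of 1 CPM), Asns followed Chac1 (Pearson r = 0.87) and Trib3 (r = 0.86), and Trib3 followed Chac1 (r = 0.79). Xbp1 ran against Herpud1 (r = -0.72), Atf4 (r = -0.71) and Asns (r = -0.62). Among 11600 genes the ones most like Asns were Mdh2 (r = 0.97), Ube2m (r = 0.95) and Ttc9 (r = 0.95), those most like Trib3 were Ywhae, Zdhhc12 and Vdac1 (r = 0.96, 0.94 and 0.93), and those most like Xbp1 were Rasgrp4, Furin and Snap23 (r = 0.96, 0.96 and 0.95). The points share 2 libraries and cell lineages, and these values are descriptions.

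BUP and UT were then set against each other within each class. Of the 110 pairs of member and class, 82 had at least 100 UMIs over both libraries. By the threshold of 1.5-fold, 4 pairs were higher in BUP and 9 lower. The background over all genes and the same 11 classes was 1.70% higher and 3.00% lower of 81912 pairs. Of the 9 lower pairs 6 were in tumour-like classes, and the 4 higher pairs were in T and NK classes. Outside the 11 classes, the monocyte-like cells (502 UT and 266 BUP cells) also had 2 of 6 members higher, Ddit3 at 0.77 (0.17 to 1.36) on 53 and 47 UMIs and Herpud1 at 0.74 (0.21 to 1.26), and 0 lower, beside 2.73% and 2.98% of 4026 genes. Of 11 early genes of tissue dissociation 3 were lower in these cells and 0 higher, with a median of -0.37 against -0.02 over all genes. Of 7 heat shock genes 2 were higher and 0 lower. The part of dissociation in the 2 members was not tested.

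**Figure D3:**
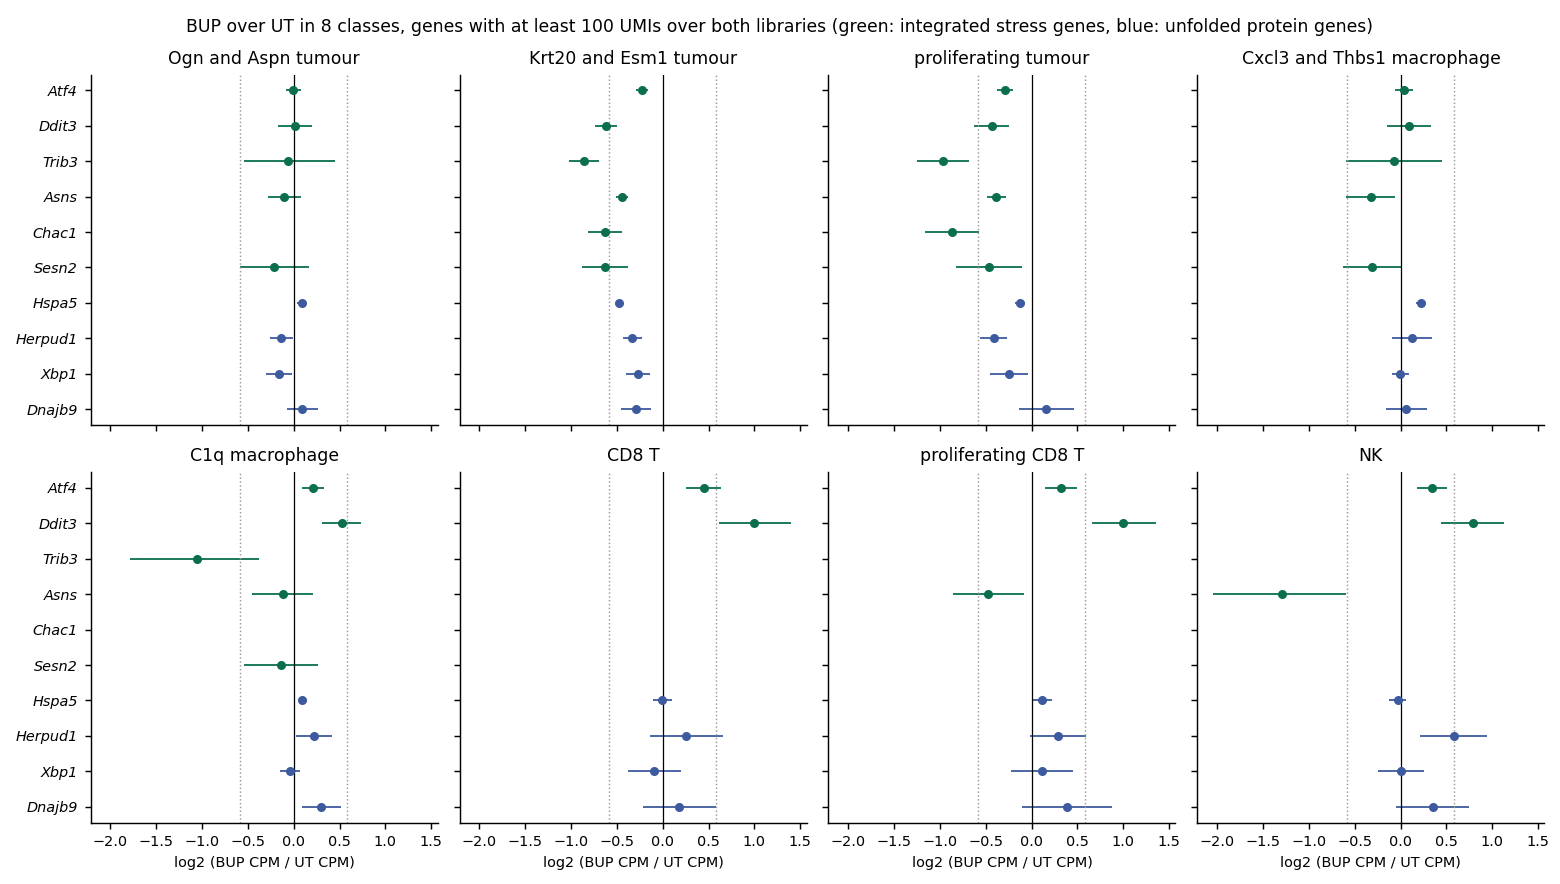
Log2 ratio of BUP to UT CPM for members with at least 100 UMIs in 8 classes, with 95% counting intervals and dotted lines at 1.5-fold. Genes of the integrated stress response are green and those of the unfolded protein response blue. The Krt20 and Esm1 panel lies wholly below 0, and Ddit3 and Atf4 lie above 0 in the CD8 T, proliferating CD8 T and NK panels.

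In the Krt20 and Esm1 cells all 10 members were below 0 and all 10 intervals excluded 0, where 63.7% of all genes were below 0 and 23.9% had an interval below 0. Trib3 was at -0.86 (-1.02 to -0.70), Chac1 at -0.63 (-0.82 to -0.44), Sesn2 at -0.63 (-0.88 to -0.38) and Ddit3 at -0.62 (-0.74 to -0.50), the 4 members past 1.5-fold. Of these, Trib3 stayed past that fold under all 9 processing alternatives, whereas Ddit3 fell short under 5, reaching -0.45, and Chac1 and Sesn2 under 2 each, reaching -0.48 and -0.42. Thinning to 2000 UMIs took Sesn2 to -1.31. Hspa5 was at -0.47 (-0.50 to -0.44), Asns at -0.44 (-0.51 to -0.37) and Atf4 at -0.23 (-0.29 to -0.16). The background in this class was 0.545% higher and 2.16% lower of 10461 genes, and the median was -0.62 over the 6 integrated stress members, -0.31 over the 4 ER members and -0.06 over all genes.

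In the proliferating tumour cells 9 of 10 members were below 0, as were 61.0% of all genes, and Trib3 at -0.96 (-1.25 to -0.68) and Chac1 at -0.87 (-1.17 to -0.58) passed 1.5-fold, beside 1.63% higher and 2.50% lower of 9298 genes. With thinned cells Chac1 was at -1.52. Dnajb9 was the exception at 0.16 (-0.14 to 0.46). In the Ogn and Aspn cells 0 of 9 members with enough UMIs passed the fold in either direction, where 0.540% of 10555 genes were higher and 2.58% lower. There Trib3 was at -0.06 (-0.55 to 0.45), Asns at -0.10 (-0.28 to 0.08), Ddit3 at 0.01 (-0.17 to 0.20) and Hspa5 at 0.09 (0.04 to 0.13). Whether the libraries differed more in one class than in another was not tested.

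In the Cxcl3 and Thbs1 cells 0 of 9 members passed 1.5-fold, beside 1.17% higher and 2.04% lower of 8771 genes, with Asns at -0.32 (-0.59 to -0.06) and Hspa5 at 0.22 (0.17 to 0.28). In the C1q cells Trib3 alone of 9 did, going from 7.76 to 3.74 CPM on 112 and 22 UMIs, a log2 ratio of -1.05 (-1.78 to -0.38), in a class where 2.75% of 9561 genes were higher and 2.06% lower by that fold. Ddit3 in these cells went from 33.1 to 47.5 CPM, or 0.52 on the log2 scale (0.30 to 0.74). In the proliferating C1q cells Sesn2 was at -0.66 (-1.32 to -0.05), and down to -1.52 under the alternatives, where 4.54% of 8454 genes were higher and 4.71% lower by 1.5-fold. In the interferon-led cells 0 of 5 members passed the fold, beside 2.02% higher and 2.78% lower of 3855 genes. The proliferating C1q class also held T cell RNA, with summed T markers at 284 CPM (UT) and 934 CPM (BUP) and with 19.1% and 34.8% of its cells among the top doublet scores. The part of that RNA in the Sesn2 value was not tested.

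In the CD8 T-like, proliferating CD8 T-like and NK-like cells Ddit3 was higher in BUP. The regulatory and gamma-delta T-like cells were under the count minimum, at 46.8 CPM (28.2 to 73.2) in UT and 69.7 CPM (45.1 to 102.9) in BUP. In the CD8 T-like cells the Ddit3 level was 34.3 CPM (27.0 to 42.9) in UT against 68.6 CPM (59.6 to 78.5) in BUP, which gave a log2 ratio of 1.00 (0.61 to 1.40). In the proliferating CD8 T-like cells it was at 42.2 and 84.5 CPM, again with a log2 ratio of 1.00 (0.65 to 1.36). In the NK-like cells the levels were 37.5 and 64.7 CPM, with a log2 ratio of 0.79 (0.44 to 1.13) that dropped to 0.52 with means of CPM over cells. It was the only member past 1.5-fold among 6 in the CD8 T-like cells, where 1.19% of 6391 genes were higher, and among 7 in the proliferating CD8 T-like cells, where 2.04% of 6681 genes were. In the NK-like cells 0.724% of 6634 genes were higher and 4.02% lower, and a further member, Asns, was past the fold in the lower direction. Mars1, which lies on the other strand at the Ddit3 locus, was at -0.96 in the proliferating CD8 T-like cells and at 0.09 in the NK-like cells.

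Atf4 was higher in BUP in the same 3 classes, by less than 1.5-fold, with log2 ratios of 0.45 (0.26 to 0.64), 0.32 (0.14 to 0.50) and 0.35 (0.18 to 0.51). Its interval lay above 0 in 5 of the 11 classes and below 0 in 2, so the rise was not confined to these 3. Asns was lower in BUP in the NK-like and proliferating CD8 T-like cells. In the NK-like cells its level was 22.3 CPM in UT (78 UMIs) against 9.13 CPM in BUP (22 UMIs), which is a log2 ratio of -1.29 (-2.04 to -0.59) that became -2.60 with cells thinned to 2000 UMIs. In the proliferating CD8 T-like cells the levels were 50.4 and 36.3 CPM and the log2 ratio -0.47 (-0.86 to -0.08). In the CD8 T-like cells Asns was at 23.5 and 15.3 CPM on 52 and 47 UMIs, under the count minimum. The regulatory and gamma-delta T-like cells had 2 members with enough UMIs, of which Hspa5 was at 488 CPM (423 to 561) in UT against 758 CPM (671 to 854) in BUP, with a log2 ratio of 0.64 (0.37 to 0.91), where 3.12% of 1251 genes were higher by 1.5-fold. This ratio was under 1.5-fold in 3 of 9 alternatives, at 0.53 at the least. Macrophage markers summed in UT and BUP to 413 and 219 CPM in the CD8 T-like, 163 and 207 CPM in the proliferating CD8 T-like, 306 and 249 CPM in the NK-like and 589 and 521 CPM in the regulatory and gamma-delta T-like cells. The genes Krt18, Krt20, Ogn and Aspn together stayed between 3.61 and 12.3 CPM in these classes. Free RNA also differed between libraries. In the erythrocyte-like cells macrophage markers summed to 930 CPM in UT and 232 CPM in BUP, and the 39 listed targets of ATF4 to 678 and 225 CPM. Of these cells 4 of 127 in UT and 0 of 114 in BUP had an Asns UMI. The part of this RNA in the ratios of these and the other classes was not tested.

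Over the classes with enough UMIs, the interval lay below 0 in 3 of 5 for Trib3, 3 of 6 for Sesn2, 2 of 2 for Chac1 and 5 of 8 for Asns, which also had 1 above 0. It lay above 0 in 5 and below 0 in 2 of 11 classes for Atf4, in 4 and 2 of 10 for Ddit3, in 1 and 1 of 10 for Dnajb9, in 5 and 2 of 11 for Hspa5, in 2 and 3 of 9 for Herpud1 and in 0 and 3 of 10 for Xbp1. Over all genes and the same classes, 17.7% of intervals lay below 0 and 9.75% above. The median over all genes was below 0 in every class of the 11, from -0.08 to -0.02. Ratios of Xbp1 stayed between -0.27 and 0.12. The 2 libraries are shared by all of these values.

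Other genes of the pathway were taken from lists. Of 39 known targets of ATF4, 35 had enough UMIs in the Krt20 and Esm1 against the Ogn and Aspn cells, and 21 were at least 2-fold higher in each library, with 2 lower in UT and 3 in BUP, beside 5.97% of all genes higher and 6.69% lower in UT and 4.77% and 5.83% in BUP. The list median was 1.28 in UT and 1.09 in BUP. The summed level of the list was 5258 and 4373 CPM in the Krt20 and Esm1 cells against 3256 and 3412 CPM in the Ogn and Aspn cells. It was higher in the Cxcl3 and Thbs1 (6297 and 6498 CPM) and interferon-led macrophage-like cells (5408 and 5710 CPM). In the neutrophil-like cells it was 11474 and 11679 CPM. The largest log2 ratios in UT were those of Pycr1 (4.36), which makes proline, Aldh1l2 (3.84), a mitochondrial folate enzyme, Avil (3.00) and Psat1 (2.91), which makes serine, and the smallest those of Ddit4 (-1.61), an mTORC1 inhibitor, and of the transcription factor Atf3 (-1.22). In BUP the 3 lower genes of the same contrast were Ddit4 (-1.69), Atf3 (-1.23) and Cebpb (-1.06), another transcription factor. In the proliferating against the Ogn and Aspn cells 18 of 33 targets were at least 2-fold higher and 1 lower in UT, where 8.59% of all genes were higher and 8.77% lower, and 13 of 33 were higher and 2 lower in BUP, beside 7.89% and 7.87%.

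Between libraries, the median log2 ratio of the ATF4 targets was -0.30 in the Krt20 and Esm1 cells (2 of 35 past 1.5-fold, both lower, Avil at -1.44 and Aldh1l2 at -0.76) and -0.38 in the proliferating tumour cells (4 of 33 lower, Slc6a9 at -0.93, Gpt2 at -0.89, Aldh1l2 at -0.83 and Slc7a11 at -0.64). Medians over all genes were -0.06 in both, and 2.16% and 2.50% of all genes were lower. In the Ogn and Aspn cells 0 of 33 targets passed the fold, beside 0.540% of all genes higher and 2.58% lower, and the list median was 0.00. The medians in the NK-like, CD8 T-like and proliferating CD8 T-like cells were -0.22, -0.15 and -0.24, where 4 of 27, 2 of 24 and 4 of 27 targets were lower and 0, 1 and 1 higher. Over all genes, 4.02% were lower in the NK-like, 4.35% in the CD8 T-like and 3.17% in the proliferating CD8 T-like cells, and 0.724%, 1.19% and 2.04% were higher. The regulatory and gamma-delta T-like cells had 6 targets with enough UMIs, of which 2 were higher, Atf3 at 0.76 and Slc3a2 at 0.64, and 0 lower, with a list median of 0.29, beside 3.12% of all genes higher and 6.95% lower. The monocyte-like cells had 3 of 17 targets higher and 0 lower, beside 2.73% of all genes higher and 2.98% lower. In the macrophage classes 0 targets were lower, and the higher ones were 2 of 30 in the C1q cells (Slc7a11 at 1.06 and Ddit4 at 0.59), 1 of 29 in the proliferating C1q cells (Phgdh at 0.89), 1 of 17 in the interferon-led cells (Slc38a2 at 0.71) and 0 of 28 in the Cxcl3 and Thbs1 cells. The shares of all genes higher in these classes were 2.75%, 4.54%, 2.02% and 1.17% in the same order, and the shares lower were 2.06%, 4.71%, 2.78% and 2.04%. Lower targets in the NK-like cells included Shmt2 (-0.69), Psat1 (-0.65), Slc7a5 (-0.60) and Phgdh (-0.59), which serve serine and glycine synthesis and amino acid uptake. In the NK-like and both CD8 T-like classes Ddit3 was higher in BUP by more than 1.5-fold and Atf4 by less, while the median of the target list was below that of all genes, which was -0.08, -0.07 and -0.04. Lists of ER chaperones and of sensors, taken up below, also had medians under those of all genes there. They were -0.13, -0.13 and -0.23 for the chaperones and -0.16, -0.20 and -0.14 for the sensors. The summed level of the targets hardly moved in the NK-like (2332 CPM in UT, 2350 CPM in BUP) and CD8 T-like cells (2069 and 2065 CPM) and was 2741 and 2546 CPM in the proliferating CD8 T-like cells.

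**Figure D4:**
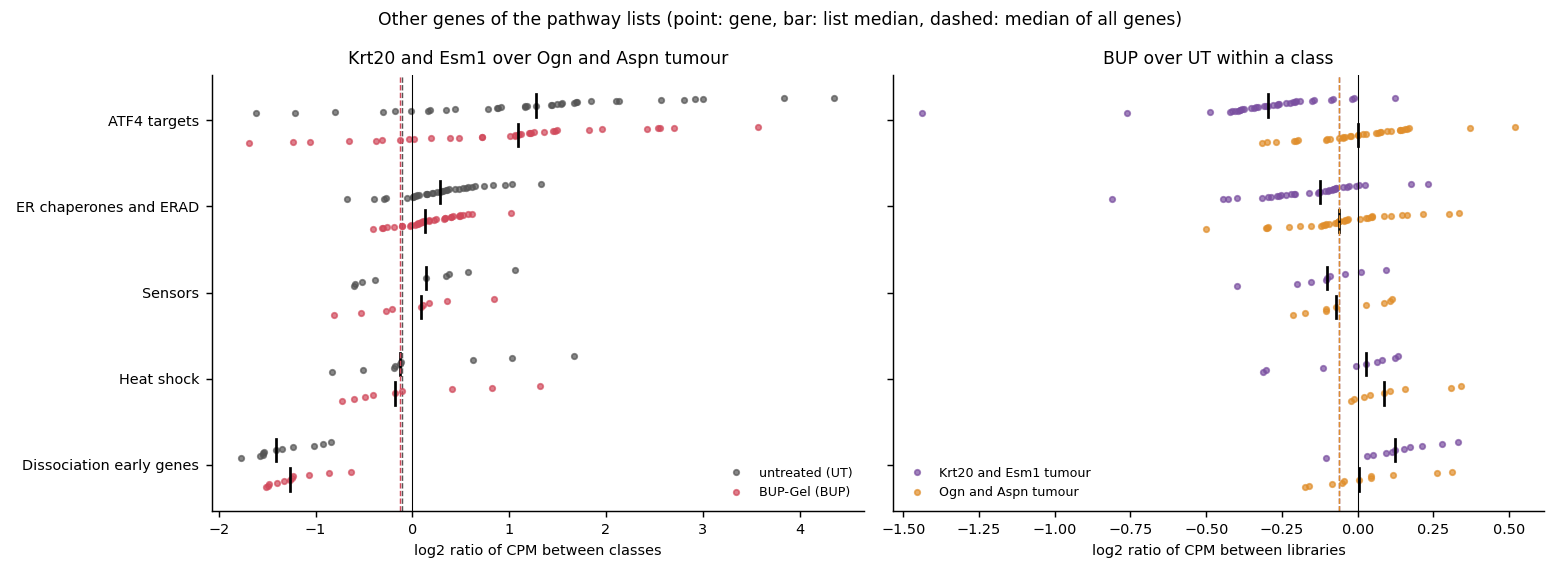
Log2 ratios of the genes of 5 lists between Krt20 and Esm1 and Ogn and Aspn cells in UT and BUP (left) and between BUP and UT within each of these classes (right); each point is a gene, black bars are list medians and dashed lines medians of all genes. ATF4 targets spread to the right on the left panel and their median lies left of 0 for the Krt20 and Esm1 cells on the right panel, and the dissociation early genes lie left of 0 on the left panel.

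Between these tumour classes ER chaperones and genes of ER-associated degradation (ERAD) differed little. Of 36 listed, 35 had enough UMIs between the Krt20 and Esm1 and the Ogn and Aspn cells, with 2 at least 2-fold higher in UT, 1 in BUP and 0 lower, beside 5.97% and 4.77% of all genes higher, and medians of 0.28 and 0.13. One oxidase of the ER, Ero1a, was 1.33 and 1.02 higher on the log2 scale in the Krt20 and Esm1 cells, and it was lower in BUP, at -0.81 in those cells, -1.19 in the proliferating tumour cells and -0.50 in the Ogn and Aspn cells. The median of this list for BUP over UT was -0.12 in the Krt20 and Esm1 cells and -0.06 in the Ogn and Aspn cells. It was -0.13 in the CD8 T-like, -0.23 in the proliferating CD8 T-like and -0.13 in the NK-like cells. In the regulatory and gamma-delta T-like cells it was 0.31. Medians over all genes in these 4 classes were -0.07, -0.04, -0.08 and -0.04. In the neutrophil-like cells 5 of 12 were lower by 1.5-fold and 0 higher, with a median of -0.32, beside 10.1% of 2574 genes lower. Of 9 sensors and eIF2 factors, Eif2s1, the regulated subunit of eIF2, was at least 2-fold higher in the Krt20 and Esm1 cells of UT (1.06), and none passed the fold in BUP.

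Genes that respond to tissue dissociation formed another list. Of 11 such early genes, 9 were at least 2-fold lower in the Krt20 and Esm1 than in the Ogn and Aspn cells in each library, beside 6.69% and 5.83% of all genes, with medians of -1.41 and -1.26, and their summed level was 4533 and 4950 CPM against 11808 and 11524 CPM. Between libraries 0 of 11 passed 1.5-fold in any tumour-like class, beside 0.540 to 1.63% of all genes higher and 2.16 to 2.58% lower. In the CD8 T-like cells 3 were lower in BUP, Fos at -1.30, Ier3 at -0.74 and Fosb at -0.64, and Nr4a1 was higher at 0.63, beside 4.35% of all genes lower and 1.19% higher. In the proliferating CD8 T-like cells Fos was lower at -0.62 and Nr4a1 higher at 1.15, beside 3.17% and 2.04%. In the NK-like cells, 2 of 11 were lower, Fos at -0.65 and Fosb at -0.63, beside 4.02% of all genes, with a summed level of 3847 CPM in UT against 4184 CPM in BUP. The regulatory and gamma-delta T-like cells, the class of the Hspa5 difference, had 5 of 10 lower, a median of -0.49 and a summed level of 9394 CPM against 7573 CPM, beside 6.95% of all genes lower. A list of heat shock genes had a median of -0.13 and -0.18 between the Krt20 and Esm1 and the Ogn and Aspn cells, with Hspd1, the mitochondrial chaperonin, highest at 1.67 and 1.32, and 0 of 9 differed by 1.5-fold between libraries in the Krt20 and Esm1 cells, beside 0.545% of all genes higher and 2.16% lower. In the Cxcl3 and Thbs1 cells 1 of 11 early genes was lower, with a median of -0.31 and a summed level of 20150 CPM in UT against 15322 CPM in BUP. Of 10 heat shock genes 2 were higher there, beside 1.17% of all genes higher and 2.04% lower. In the C1q and the proliferating C1q cells 1 of 11 early genes was higher, beside 2.75% and 4.54% of all genes. The part of dissociation in the levels of the members was not tested.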

How the data were processed

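Single-cell suspensions of pooled CT26 tumours were measured with 5′ gene expression libraries, 1 per condition. The files hold raw UMI counts per gene and barcode, deposited by the authors, and the submitters' processing notes name Cell Ranger 8.0.1 and Seurat 5.0.1. The reference was GRCm39. As in the study, barcodes with more than 100 UMIs of which less than 20% were mitochondrial entered the analysis. Cells were log-normalised and clustered in Seurat 5.3.0 (R 4.3.3) with 2000 variable genes less the members and list genes, 20 principal components and a resolution of 0.5. Immune clusters, defined by Ptprc UMIs in 30% of cells or more, were clustered a second time. No doublets were removed, and cells were scored with Scrublet in scanpy 1.11.5. UMIs were summed per class and library in Python 3.11.15 and divided by the class total (CPM), with exact 95% Poisson intervals, and intervals of ratios were exact given the total of both counts (scipy 1.17.1). Each gene with at least 100 UMIs over both sums was compared, and counted when past 1.5-fold between conditions or 2-fold between classes. A count of 0 was given a limit of 3 counts. The calculation was tested on simulated data. Classes held 358652 to 22780796 UMIs, which sets the width of the intervals.

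The members, the lists and the classes were chosen with earlier results of these data known. All 10 members are named, and other genes come from the lists, up to 4 from each by the largest and smallest ratio, while Mars1 at the Ddit3 locus, Cebpb, the genes past the fold in a class and the values of Ero1a between libraries were chosen after their values were seen. Of the list symbols 6 were matched to older symbols by identifier. Alternatives were a stricter cell filter, a resolution of 1.0, 30 principal components, members and list genes kept for clustering, median-ratio scaling, means of CPM over cells, thinning to 2000 UMIs, leaving out the top 6% by doublet score, leaving out the 5 cells with most UMIs of a member, and a fold of 2.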

Additional observations from a re-analysis of the deposited data

Results flagged for a closer look

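Ddit3 differed in sign between cell classes. Its log2 ratio of BUP to UT was -0.62 in the Krt20 and Esm1 tumour-like cells, 1.00 in the CD8 T-like cells, 1.00 in the proliferating CD8 T-like cells and 0.79 in the NK-like cells, each past 1.5-fold. With 1 library per condition the difference between these classes was not tested. Over 9 alternatives the values stayed between -0.63 and -0.45, between 0.90 and 1.12, between 0.76 and 1.12 and between 0.52 and 1.20 in the same order.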

How the results depend on the processing

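No paired analysis was possible because each condition has a single library. Of the 82 pairs of member and class, 4 were at least 1.5-fold higher in BUP and 9 lower, and with a fold of 2 these counts were 1 and 2. Under the other 9 alternatives they ranged from 3 to 6 and from 6 to 12, and the pairs that passed 1.5-fold kept their sign in all alternatives where they could be recomputed (11 to 13 pairs). Of all pairs, the sign was kept in 62 of 81 with thinned cells, 61 of 72 with 30 principal components and 71 to 80 of 82 under the other 7 alternatives, and 51 of 81, 62 of 72 and 75 to 82 of 82 ratios stayed within the interval. The count of members at least 2-fold higher in the Ogn and Aspn than in the proliferating tumour cells of UT was 1 (Dnajb9) and became 0 with means of CPM over cells. With 30 principal components no cluster stood for the proliferating tumour cells, so comparisons with that class could not be made. The class with the highest level of a member was the same in 13 to 20 of 20 cases. Of the 13 pairs past 1.5-fold, the widest range was that of Asns in NK-like cells, from -2.60 to -1.19, followed by Sesn2 in proliferating C1q macrophage-like cells (-1.52 to -0.61), Sesn2 in Krt20 and Esm1 cells (-1.31 to -0.42) and Chac1 in proliferating tumour cells (-1.52 to -0.71). Depth limits Trib3, Chac1 and Sesn2 in T and NK cells, where few UMIs were counted. The members counted as higher in the Krt20 and Esm1 cells and as lower in the Ogn and Aspn than in the proliferating cells were added after seeing the data.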
